A study of Mus musculus with 4 samples.

Results

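The IL-4-only regions inside genes were stretches of open chromatin that lay in the body of a protein-coding gene, far from any transcript start, and were called in iTreg cells cultured with IL-4 but not in iTreg cells cultured without it. They were chosen by their peak calls. The peaks of the 4 ATAC-seq libraries were merged wherever at least 1 base was shared, and a merged region was kept when each iTreg+IL-4 library had a peak there and no iTreg+PBS library did. Its centre also had to lie more than 5 kb from every transcript start of the GENCODE annotation and within a protein-coding gene. This rule selected 852 regions, which were 3.31% of the 25777 merged regions inside genes and away from start sites. Among all 93503 merged regions on the assembled chromosomes, 2.6% were called only with IL-4 (2435 regions), and the remaining ones lay near start sites (864) or between genes (719).

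ATAC-seq maps open chromatin through the insertion of sequencing adapters by a transposase. All cells were naive CD4+ T cells with the phenotype CD62Lhigh CD44low CD25-, from the spleen of male wild-type C57BL/6 mice of 7 weeks, and 50000 cells entered each library. Both groups were stimulated for 48 h with anti-CD3 at 5 µg/ml and anti-CD28 at 1 µg/ml, together with IL-2 at 10 ng/ml and TGF-β1 at 5 ng/ml. The iTreg+IL-4 group also received IL-4 at 15 ng/ml, whereas the iTreg+PBS group did not. Each group had 2 libraries. The study describes the replicates as independent pooled samples, and how many mice entered a pool is not given in the sources used here. The lists held 77064 and 56645 peaks in iTreg+PBS replicates 1 and 2, and 78670 and 67743 peaks in iTreg+IL-4 replicates 1 and 2. The number of reads is unknown, so a region without a peak is one that did not pass the caller's threshold in that library. Peaks lay within 1 kb of a start site for 12 of 12 T cell markers in every library, for 4 to 7 of 8 CD8 T cell and NK cell markers, for 4 to 7 of 10 B cell markers, for 3 or 4 of 11 myeloid markers and for 3 or 4 of 10 neuronal and other non-immune markers.

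Open chromatin away from start sites often marks enhancers, which are stretches of DNA that bind transcription factors and act on a promoter at a distance. Many enhancers lie in introns, either of the gene they act on or of a neighbour. IL-4 binds a receptor whose chain is encoded by Il4ra, the kinases Jak1 and Jak3 then phosphorylate STAT6, and STAT6 dimers bind a palindrome with the arms TTC and GAA held 4 bases apart. STAT5, which follows IL-2, favours the same arms at 3 bases. These patterns, TTCNNNNGAA and TTCNNNGAA with N for any base, are called here the STAT6-type and the STAT5-type palindrome.

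The sequences of 8 of these regions show what lies under the calls. They were read from GRCm38 (mm10) on the plus strand, and capitals mark STAT6-type palindromes. Among the genes listed further down for their roles in T cells, only Ets1 had a region with this palindrome, and the other 5 regions that hold it are the best-ranked ones. In introns the central 200 bases are shown, and in exons outside the coding sequence only the 30 bases around the palindrome.
Ets1 (chr9:32745933-32746132, plus strand): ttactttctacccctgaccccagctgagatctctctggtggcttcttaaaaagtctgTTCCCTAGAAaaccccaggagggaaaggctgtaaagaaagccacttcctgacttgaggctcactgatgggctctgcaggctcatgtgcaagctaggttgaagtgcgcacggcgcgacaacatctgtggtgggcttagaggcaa
Dock5 (chr14:67820295-67820494, plus strand): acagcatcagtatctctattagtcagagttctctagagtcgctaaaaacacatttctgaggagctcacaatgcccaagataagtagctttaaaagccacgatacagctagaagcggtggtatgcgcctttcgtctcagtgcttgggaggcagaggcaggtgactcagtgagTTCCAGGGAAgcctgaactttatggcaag
Rbm33 (chr5:28400172-28400371, plus strand): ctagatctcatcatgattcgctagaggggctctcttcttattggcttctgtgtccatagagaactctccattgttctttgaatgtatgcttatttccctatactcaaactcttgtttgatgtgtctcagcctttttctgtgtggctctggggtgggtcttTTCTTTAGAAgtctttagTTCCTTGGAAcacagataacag
Zbtb37 (chr1:161009570-161009599, plus strand): aaccacagagaTTCCAGAGAAgttctcaat
Virma (chr4:11550342-11550371, plus strand): atgtcgctgtTTCCTCAGAAgtttaaaaca
4932438A13Rik (chr3:36999855-37000054, plus strand): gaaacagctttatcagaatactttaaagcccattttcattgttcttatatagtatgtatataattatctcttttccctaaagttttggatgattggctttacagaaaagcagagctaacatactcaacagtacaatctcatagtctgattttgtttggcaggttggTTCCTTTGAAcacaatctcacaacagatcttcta
The best-ranked regions of all, in Rnf115 and Lrguk, held no STAT6-type palindrome in the same window.
Rnf115 (chr3:96740344-96740543, plus strand): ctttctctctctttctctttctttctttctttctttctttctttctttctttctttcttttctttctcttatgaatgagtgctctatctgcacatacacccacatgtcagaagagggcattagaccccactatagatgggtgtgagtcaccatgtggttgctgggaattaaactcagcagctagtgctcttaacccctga
Lrguk (chr6:34086467-34086666, plus strand): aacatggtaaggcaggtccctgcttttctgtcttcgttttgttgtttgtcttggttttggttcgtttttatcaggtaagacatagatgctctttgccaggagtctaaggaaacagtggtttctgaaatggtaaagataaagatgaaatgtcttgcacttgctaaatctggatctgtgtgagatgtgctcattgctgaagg

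Most of the IL-4-only regions inside genes were weak peaks. Each peak carries a −log10 q, which is larger for a clearer enrichment, and a height in overlapping fragments. Neither is scaled between libraries, so a peak was ranked within its own list as the percentage of peaks with a higher −log10 q, where 0% is the best rank. In iTreg+IL-4 replicate 1, the −log10 q of the 852 regions ran from 1.51 to 73.2 with a median of 6.97. In iTreg+IL-4 replicate 2 it ran from 1.40 to 45.5 with a median of 6.41. Over all peaks of these libraries the medians were 23.0 and 22.1. The median height was 23 fragments in replicate 1 and 19 in replicate 2, against 51 and 44 for all peaks. The median region thus stood below 80.2% and 82.8% of its lists. In replicate 1, 96.4% of the regions (821) lay in the lower 50% of the list, and in replicate 2 98.4% (838). Only 6 regions (0.704%) lay in the upper 50% of both.

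**Figure D1:**
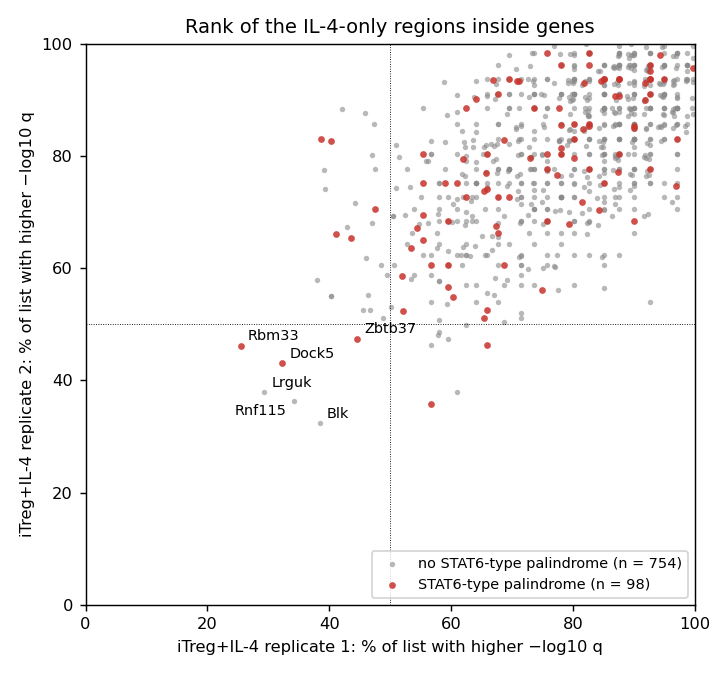
Rank of each of the 852 IL-4-only regions inside genes in iTreg+IL-4 replicate 1 (x axis) and replicate 2 (y axis), as the percentage of the list with a higher −log10 q, so that strong peaks lie at the lower left. Red points hold a STAT6-type palindrome (98), dotted lines mark 50%, and the 6 regions below and to the left of these lines carry the names of their genes.

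The order of the regions was shared between the replicates only in part. Across the 852 regions, the ranks in the iTreg+IL-4 libraries had a Pearson r of 0.587 and a Spearman rho of 0.555. The regions inside genes that were called in all 4 libraries, of which there were 11146, gave 0.864 and 0.883. These are descriptions across regions, which share libraries and are not replicates, and the IL-4-only regions span a narrower range of ranks. The weaker of the calls decided whether a region was listed. At a −log10 q under 2 there were 8 regions in replicate 1 and 8 in replicate 2, and at 20 or more there were 46 and 21.

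The share of regions inside genes that were called only with IL-4 changed along the lists. Each list was divided into 10 equal parts, from the highest −log10 q in part 1 to the lowest in part 10. In iTreg+IL-4 replicate 1, parts 1 and 2 held 574 and 1503 regions inside genes and none of them was IL-4-only. The share was 0.98% in part 5, 5.61% in part 7 and 9.86% in part 9, where it was highest. In replicate 2, parts 1 to 3 held none, and the share reached 11.9% in part 10.

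**Figure D2:**
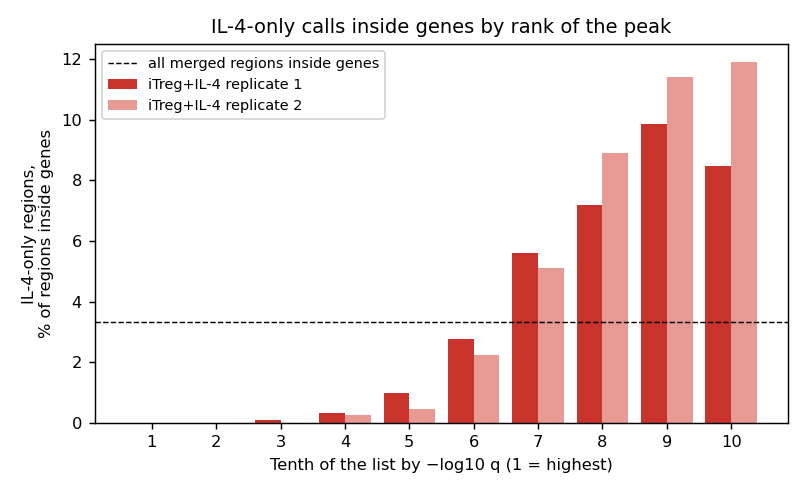
Percentage of regions inside genes that were IL-4-only (y axis), in 10 equal parts of each iTreg+IL-4 list ordered by −log10 q (x axis, 1 is the highest). Bars show iTreg+IL-4 replicate 1 (dark) and replicate 2 (light), each over the regions with a peak in that part of its list. The dashed line is the 3.31% of all merged regions inside genes, including those without a peak in that library. Bars exceed this line from part 7 on, but its base is wider than that of the bars.

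Whether a region was listed also rested on which iTreg+PBS library had a peak. A further 3087 regions inside genes had a peak in each iTreg+IL-4 library and in iTreg+PBS replicate 1, but none in iTreg+PBS replicate 2, which had the shortest list. Their median rank in iTreg+PBS replicate 1 was 68.6%. Regions shared by the iTreg+IL-4 libraries with iTreg+PBS replicate 2 alone numbered 222, with a median rank of 85.7% there. The part of library depth in these counts was not tested. On the side of distance, 61 IL-4-only regions in genes lay 4 to 5 kb from a start site and were not listed, whereas 79 lay at 5 to 6 kb and 75 at 6 to 7 kb. The nearest inside the limit was in Nedd4l at 5060 bases, with −log10 q of 7.60 and 3.55 in iTreg+IL-4 replicates 1 and 2. The nearest outside was in Npffr1 at 5000 bases, with 7.78 and 10.8.

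As a share of all peaks of a library, those inside genes and more than 5 kb from start sites differed little between the conditions. They made up 26.4% and 24.0% of the peaks in iTreg+PBS replicates 1 and 2, and 26.5% and 26.1% in iTreg+IL-4 replicates 1 and 2. The means were 25.2% ± 1.69 (SD, n = 2) and 26.3% ± 0.318 (SD, n = 2), a difference of 1.11 percentage points that was smaller than the SD without IL-4 (p = 0.667, two-sided exact permutation test). The smallest p that 2 libraries against 2 allow in this test is 0.33. Without iTreg+PBS replicate 2 the difference was -0.0845 percentage points.

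The regions were small and mostly intronic. Their width ran from 172 to 891 bases with a median of 321.5, against 604 for regions inside genes that were called in all 4 libraries and 313 for the 161 called only without IL-4. The centre lay in an intron in 92% (784 of 852), in a coding exon in 2.58% (22), in an exon outside the coding sequence in 2.93% (25), and outside all coding transcripts of the gene in 2.46% (21). Of the intronic ones, 28.3% were in intron 1. Regions called in all 4 libraries had nearly the same makeup, with 92.4% in introns and 30.4% of those in intron 1. The centre lay at a median of 13305 bases from the nearest start site, and the farthest at 206800 bases. Among chromosomes with over 100 regions inside genes, the share that was IL-4-only ranged from 2.62% on chromosome 16 (27 of 1032) to 4.2% on chromosome 18 (37 of 881), against the 3.31% above.

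Most of the regions stood apart from any iTreg+PBS peak. The nearest one lay at a median of 5249.5 bases, within 1 kb for 13.4% (114 of 852) and beyond 10 kb for 30.8% (262). For IL-4-only regions near start sites, 21.1% had an iTreg+PBS peak within 1 kb, and for those between genes 11.4%. The 114 regions with such a neighbour were taller but no clearer than the other ones: their median heights were 30 and 23.5 fragments in iTreg+IL-4 replicates 1 and 2, against 23 and 19, while their median −log10 q was 6.71 and 6.17 against 6.97 and 6.50. The region in intron 6 of Ets1 shown above was of this kind. Ets1 encodes a transcription factor of the ETS family that T cells need for their development. The region had heights of 152 and 98 fragments in iTreg+IL-4 replicates 1 and 2, but −log10 q of only 12.2 and 3.58, and an iTreg+PBS peak lay 288 bases away.

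The 10 best-ranked regions came from genes with unlike functions. The first lay in intron 1 of Rnf115 (chr3:96740224-96740664), which encodes an E3 ubiquitin ligase. Its −log10 q was 45.9 in iTreg+IL-4 replicate 1 and 38.0 in replicate 2, at heights of 70 and 53 fragments, and the nearest iTreg+PBS peak was 2568 bases away. Of the peaks in the lists, 34.2% and 36.4% had a higher −log10 q. The second, in intron 12 of Lrguk, which encodes a protein of sperm development, had 59.1 and 35.6, with heights of 85 and 53 fragments and the nearest iTreg+PBS peak 42286 bases away.

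The third lay in intron 6 of Blk, a Src family kinase of B cells (chr14:63381964-63382256), with −log10 q of 37.5 and 45.5 and heights of 77 and 72 fragments. Its nearest iTreg+PBS peak was 1071 bases away. Of the 3 regions inside Blk, 0 were called in all 4 libraries, against 11146 of the 25777 regions inside genes. Of the 10 B cell markers, 4, 4, 5 and 7 had a start-site peak in iTreg+PBS replicates 1 and 2 and iTreg+IL-4 replicates 1 and 2, and Cd79a had none in any library. The part of B cells in this region was not tested.

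Dock5, Rbm33 and Zbtb37 completed the 6 genes whose region lay in the upper 50% of both lists, and all 3 of these regions held the STAT6-type palindrome. Dock5 encodes an exchange factor that activates the GTPase Rac. Its region in intron 15 had −log10 q of 50.4 and 28.8 and the nearest iTreg+PBS peak was 57070 bases away. Rbm33 encodes an RNA-binding protein, and its region in intron 15 had 73.2 in iTreg+IL-4 replicate 1, the highest of the 852, and 25.5 in replicate 2. It held 2 STAT6-type palindromes, TTCTTTAGAA and TTCCTTGGAA, and a STAT5-type palindrome. Zbtb37 encodes a zinc finger protein, and its region in exon 5, outside the coding sequence, had 28.6 and 24.3.

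The remaining 4 of the 10 were close to one another. Enox1, which encodes an oxidase of the cell surface, had −log10 q of 24.1 and 21.03 in intron 7. Virma, a scaffold of the complex that writes N6-methyladenosine on RNA, had 21.1 and 20.1 in its last exon, where the region held the palindrome TTCCTCAGAA. Psme4, an activator of the proteasome, had 27.3 and 19.99 in intron 3. Dnah11, a heavy chain of ciliary dynein, had 26.3 and 19.99 in coding exon 56. In the weaker library, the rank of these 4 lay between 51.2% and 52.6%, so neighbours in this order are not separated by the values.

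The STAT6-type palindrome was found in more of the IL-4-only regions than of the other regions inside genes. Within the 200 bases around the centre, on both strands, it occurred in 11.5% of the 852 regions (98, 95% Wilson interval 9.53 to 13.8). Of the regions inside genes that were called in all 4 libraries, 6.08% held it (678 of 11146, 95% interval 5.65 to 6.54), and of those called only without IL-4, 3.73% (6 of 161, 95% interval 1.72 to 7.89). Neither interval overlaps that of the IL-4-only regions. Over all 25777 regions inside genes the share was 6.24%. The intervals cover the counting of regions, which are not replicates, and compare these libraries only. The IL-4-only regions near start sites and between genes, which are outside this set, held it in 13.2% and 15.0%.

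The STAT5-type palindrome, with 1 base fewer between the same arms, did not follow this order. It occurred in 8.10% of the IL-4-only regions (69, 95% interval 6.45 to 10.1) and in 10.3% of the regions called in all 4 libraries (95% interval 9.72 to 10.9), and these intervals overlapped for this window. The windows of the IL-4-only regions had a GC content of 46.3% ± 6.99 (SD over regions), against 47.9% ± 6.97. When the regions called in all 4 libraries were weighted to the GC content of the IL-4-only ones, their shares were 6.50% for the STAT6-type and 11.2% for the STAT5-type palindrome, the latter above the interval of the IL-4-only regions. Masked repeats took up 18.3% of the bases in the IL-4-only windows and 16.9% of those called in all 4 libraries. The shares changed with the window. Within 400 bases, the STAT6-type share was 21.7% for the IL-4-only regions and 12.0% for the regions called in all 4 libraries, and over the whole merged region it was 19.6% and 17.6%. The STAT5-type share was 12.9% and 17.4% within 400 bases, and 11.9% and 24.3% over the whole region. The part of the greater width of the regions called in all 4 libraries was not tested.

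Among 7 further motifs, which were chosen after the files had been seen, GATA had a match in 13.7% of the IL-4-only regions (117, 95% interval 11.6 to 16.2) against 9.37% in all 4 libraries (95% interval 8.84 to 9.92). The IL-4-only regions near start sites and between genes held it in 11.3% and 16.0%. It was searched as AGATAA, the core bound by GATA3, the master factor of type 2 helper T cells. IRF, searched as GAAANNGAAA, was at 3.99% (95% interval 2.87 to 5.52) against 6.35% (95% interval 5.91 to 6.82), but over all regions inside genes its share was 5.47% (95% interval 5.203 to 5.758), which overlaps the interval of the IL-4-only regions. For the other 5 the intervals overlapped those of the regions called in all 4 libraries. AP-1 (TGANTCA) was at 12.4% against 14.4%, RUNX (TGTGGT) at 23.0% against 25.6% and ETS (AGGAAGT) at 11.7% against 10.99%. TCF/LEF (CTTTGAT) was at 4.93% against 4.13% and CTCF (GNGGNGGCA) at 4.23% against 3.90%. The weighting by GC content was applied only to the STAT6-type and STAT5-type palindromes, so base composition was not accounted for in the shares of these 7 motifs. A match describes the letters in the window and does not show that a factor was bound.

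**Figure D3:**
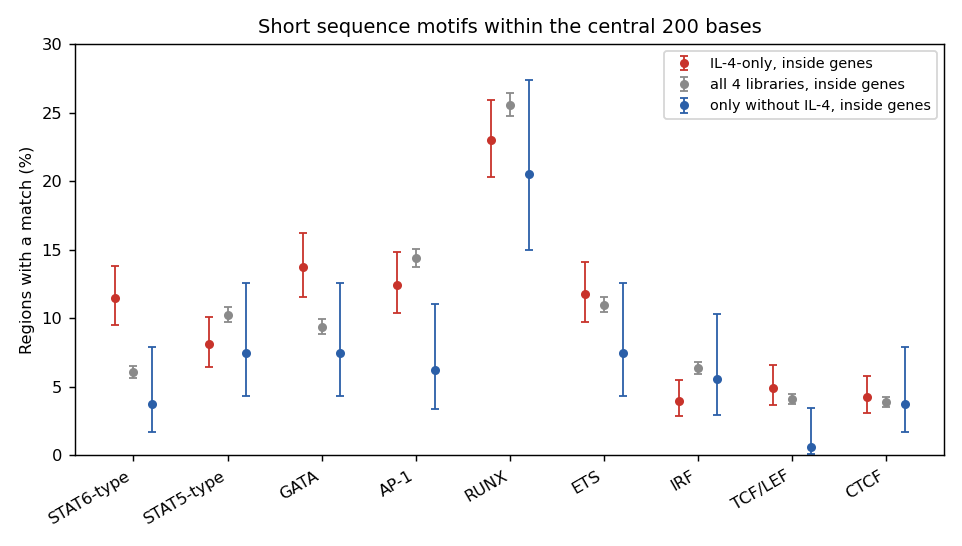
Percentage of regions with at least 1 match to each of 9 motifs in the central 200 bases (y axis), for IL-4-only regions inside genes (red, 852), regions inside genes called in all 4 libraries (grey, 11146) and those called only without IL-4 (blue, 161). Bars are 95% Wilson intervals over regions, and for the STAT6-type palindrome the red point at 11.5% lies above the grey one at 6.08%.

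The rank of a region comes from the calls that chose it, so its relation to the palindromes is given as a description. When the 852 regions were ordered by the rank in their weaker library and divided into 4 equal parts, the palindrome occurred in 16.9% of the best 213 (36, 95% interval 12.5 to 22.5) and then in 10.8% (23), 7.98% (17) and 10.3% (22). The interval of the best part overlapped those of the second and the last part, whereas that of the third part ended at 12.4%. The STAT5-type palindrome was at 9.39%, 7.51%, 6.10% and 9.39% in the same order. In iTreg+IL-4 replicates 1 and 2, the 98 regions with the palindrome had a median rank of 75.3% and 80.0%, against 80.2% and 83.0% for the 754 without it.

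**Figure D4:**
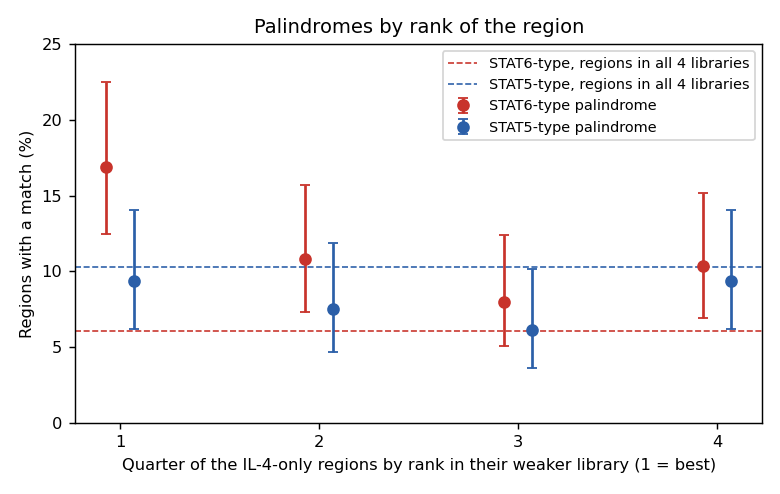
Percentage of IL-4-only regions inside genes that held the STAT6-type (red) or STAT5-type (blue) palindrome (y axis), in 4 equal parts of the regions ordered by the rank in their weaker iTreg+IL-4 library (x axis, 213 regions each, 1 is best). Bars are 95% Wilson intervals and dashed lines the shares of regions called in all 4 libraries, and the STAT6-type shares are 16.9%, 10.8%, 7.98% and 10.3% from part 1 to part 4.

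The palindromes themselves were of many kinds. The 98 regions held 110 of them in 44 forms, counting both strands as 1, and 12 regions held more than 1. The most frequent form was TTCCTCAGAA, found 7 times, followed by TTCCCAGGAA, TTCTCAAGAA and TTCTGAAGAA with 5 each. Within 40 bases of the centre lay 42.7% of the 110 palindromes (47), against 41.7% in the regions called in all 4 libraries. Of the 98 regions, 19.4% also held GATA, 32.7% RUNX, 17.3% AP-1 and 15.3% ETS, against 13%, 21.8%, 11.8% and 11.3% of those without the palindrome. IRF was in 1.02% against 4.38%, the STAT5-type palindrome in 7.14% against 8.22%, TCF/LEF in 5.1% against 4.91% and CTCF in 3.06% against 4.38%. These differences were not tested.

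The 852 regions lay in 739 genes, which were 10.5% of the 7054 coding genes with any region inside and away from start sites. A single region was found in 627 genes, 2 in 94 genes, 3 in 14 genes and more in 4 genes, and 23 regions lay in 2 overlapping genes. Within a gene, neighbouring IL-4-only regions were a median of 50.9 kb apart. The genes were long, with a median of 102 kb against 58.0 kb for all 7054. They also had more regions of any kind inside, with a median of 5 against 2. The part of length and of this number in which genes held an IL-4-only region was not tested. The start sites of these genes were mostly open in both conditions. In 84.98% of them (628 of 739), a peak lay within 1 kb of a start site in all 4 libraries, against 74.6% of the 6315 genes that had a region inside but none of these. The part of gene length in this difference was not tested. Where a start-site peak was present in the 739 genes, its median rank was 10.1% and 12.0% in iTreg+PBS replicates 1 and 2, and 10.2% and 10.5% in iTreg+IL-4 replicates 1 and 2. For the other 6315 genes it was nearly the same, at 10.2%, 12.4%, 10.3% and 10.7% in the same order. A start-site peak with IL-4 in both replicates and without IL-4 in neither was found for 2 of the 739 genes (0.271%), C130060K24Rik and Lonrf2, against 24 of the other 6315 (0.38%). The opposite was found for 0 of the 739 genes and for 4 of the 6315 (0.0633%).

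The genes with 4 or more of the regions were very long, except that 1 of them is a record that spans others. Lpp, which encodes a protein of focal adhesions and runs over 599 kb of chromosome 16, had 5 among 46 regions inside. The best-ranked of them, in intron 10 (chr16:24947556-24947870), had −log10 q of 25.3 and 10.4 and held a STAT6-type palindrome. Inpp4b, which encodes a phosphatase of the PI3K pathway, had 4 among 59 regions over 785 kb, and the best-ranked, in intron 2, had 14.1 and 7.69. Nfia, which encodes a transcription factor of the nuclear factor I family, had 4 among 24 regions over 346 kb. Its best-ranked region, in intron 2, had 20.4 and 13.1. The record Gm20388 spans 4435 kb of chromosome 8 and overlaps 73 other coding genes. Of its 5 regions, 2 lay in Ankrd11, 2 in Gse1 and 1 in no other coding gene. Outside the rule for named genes, Cog7 and Eya2 were picked after their values were seen: each had 3 of the regions, among 7 and 10 inside, and 0 called in all 4 libraries. Many other genes also lacked such a shared region. One was present in 71.4% (528) of the 739 genes and in 65.8% of the 7054 coding genes with any region inside. Cog7 encodes a subunit of a complex that tethers vesicles at the Golgi, and its best-ranked region, in intron 3, had −log10 q of 12.4 and 25.3.

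The regions were also counted in 14 lists of genes with roles in T cells, with 275 genes in all. Of the regions inside these genes, 2.65% were IL-4-only (36 of 1359), against the 3.31% of all regions inside genes. Of the 171 listed genes with a region inside, 29 held one (17%), against the 10.5% of all such coding genes, and the listed genes had a median of 4 regions inside against 2. Of the regions inside genes of the transcription factors that set and keep T cell identity, 3.88% were IL-4-only (14 of 361), near the 3.31% of all regions inside genes. They lay in 10 of the 24 genes with a region inside (41.7%), and these 24 genes together held the 361 regions, the highest number among the 14 lists. In Ikzf1, which encodes Ikaros, 3 of 23 regions were IL-4-only. The best-ranked of them, in intron 3 (chr11:11711780-11712074), had −log10 q of 38.3 and 16.6 at heights of 98 and 55 fragments, with 2 GATA matches and no STAT6-type palindrome. The other pair, in introns 3 and 4, had 9.86 and 15.5, and 5.29 and 7.49. Lef1, which encodes a partner of β-catenin, had 20.03 and 16.5 in intron 3. Ikzf3, which encodes Aiolos, had 11.04 and 16.7 in intron 3, and Foxp1, a factor of naive T cells, had 13.9 and 11.2 in intron 5. The other 6 genes were Bcl11b, Ets1, Runx3, Satb1, Tcf12 and Tox, and their best-ranked regions had −log10 q of at most 11.1 in either library.

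The IL-4 receptor and STAT6 pathway had 3 IL-4-only regions among 34 inside its genes (8.82%). They lay in Il4ra, Jak1 and Ptpn11, and with 3 regions the share moves by a large step for each. The region of Jak1, a kinase shared by the receptors of IL-4 and IL-2, was in intron 1 (chr4:101194249-101194480) and had −log10 q of 11.5 and 21.8 at heights of 42 and 51 fragments. The region of Il4ra lay in its last exon, outside the coding sequence (chr7:125578196-125578690). Its heights were 109 and 80 fragments, but its −log10 q was only 6.36 and 5.06, and an iTreg+PBS peak lay 1130 bases away. The coding transcript that starts nearest to it, at 25051 bases, belongs to Il21r, the receptor gene next to Il4ra. Ptpn11, which encodes the phosphatase SHP2, had 4.30 and 3.33 in intron 1. None of the 3 regions held a STAT6-type palindrome, whereas that of Ptpn11 held a STAT5-type one. The list of IL-2 and common gamma chain receptors also had 3 among 49 (6.12%), which were those of Il4ra and Jak1 and a region in intron 6 of Stat5a with −log10 q of 16.4 and 3.75.

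T cell receptor signalling had 6 IL-4-only regions among 281 (2.14%). Rasgrp1, which activates Ras, had −log10 q of 6.37 and 5.34 in intron 2, and Nfatc1, a calcium-dependent transcription factor, had 4.53 and 6.56 in intron 9. Cd4, the coreceptor, had 4.30 and 9.11 in intron 3, the only region inside that gene and away from start sites in any library. Cd247, which encodes the zeta chain, had 3.01 and 4.89 in intron 1.

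The genes of regulatory T cells had 4 among 153 regions (2.61%), none of them strong. Foxo3, a transcription factor restrained by AKT, had 2 of them in intron 2, with −log10 q of 9.19 and 10.4 and of 10.4 and 7.15. Bach2, a repressor that favours regulatory over effector fates, had 7.84 and 4.52 in intron 1, and Satb1, an organiser of chromatin, had 3.85 and 3.41 in intron 9. In TGF-β signalling the count was 1 of 86 regions (1.16%), in Smurf2, a ubiquitin ligase of the pathway, with 4.93 and 7.07. Bach2 was also the only gene among the BATF, IRF and AP-1 factors, with 1 of 85 regions (1.18%).

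Among enzymes that act on chromatin, the histone deacetylases and sirtuins had 1 IL-4-only region among 43 (2.33%). It lay in intron 1 of Hdac4, a class IIa deacetylase (chr1:92165742-92166467), and had −log10 q of 3.97 and 6.64 at heights of 19 and 20 fragments. The histone acetyltransferases and DNA methylation genes had 3 among 94 (3.19%). Tet1, which oxidises methylated cytosine, had 14.1 and 14.05 in coding exon 4, Kat6b, an acetyltransferase, had 8.96 and 15.5 in intron 2, and Tet2 had 7.66 and 3.82 in intron 1.

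Of the remaining lists, growth and metabolic activation had 3 among 48 (6.25%), with Pdk1, a kinase of pyruvate dehydrogenase, at 7.69 and 4.10 and Rictor, a subunit of mTORC2, at 4.22 and 5.33. Homing and adhesion had 1 among 51 (1.96%), in intron 2 of Ccr7, the receptor that guides T cells to lymph nodes. That region was tall, at 121 and 83 fragments, with −log10 q of 16.3 and 6.60 and an iTreg+PBS peak 639 bases away. The type 2 helper genes had 0 among 34 regions, the type 1 and type 17 helper genes 0 among 128, and the genes of NF-κB and TNF receptors 0 among 44. The calls of these lists differ by few regions, and no list was tested.

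**Figure D5:**
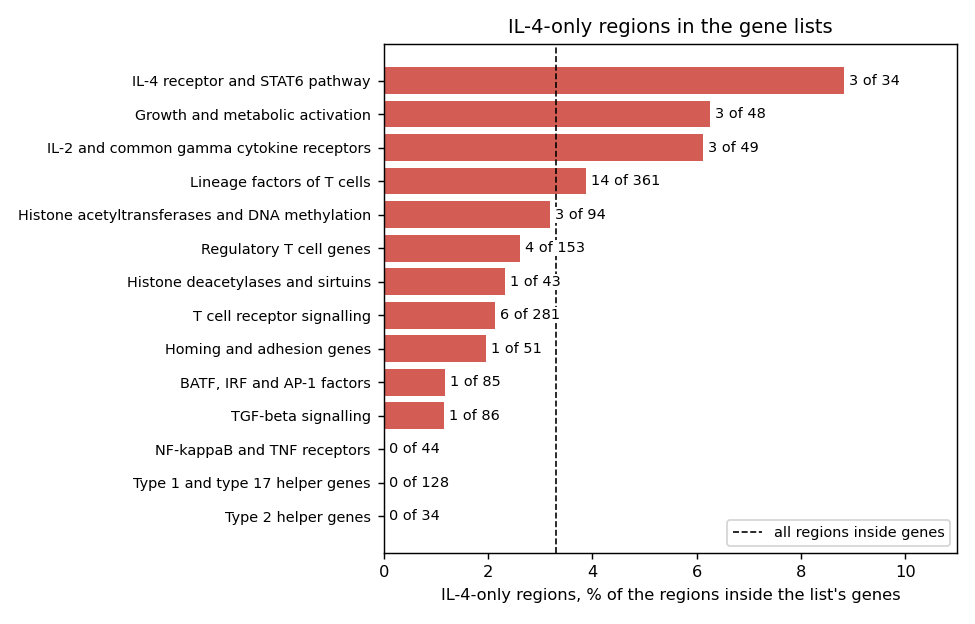
Percentage of the regions inside the genes of each list that were IL-4-only (x axis), for 14 lists of T cell genes (y axis), with the counts beside the bars. The dashed line is the 3.31% of all regions inside genes, and the longest bar among these 14 lists, that of the IL-4 receptor and STAT6 pathway at 8.82%, stands for 3 regions.

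Against the 3.31% of all regions inside genes, the T cell markers had 6 IL-4-only regions among 64 (9.38%), with Bcl11b, Cd247, Cd4 and Cd5 among their genes, the B cell markers 1 among 19, in Blk, and the neuronal and other non-immune markers 1 among 13, in Rbfox3, with −log10 q of 8.00 and 17.8. The myeloid markers had 0 among 6 and the markers of CD8 T cells and NK cells 0 among 2. When each region was given to the coding gene with the nearest start site in place of the gene around it, 33 of the 275 listed genes held one, 28 of them in both counts. Il4ra was lost by that assignment, and Hif1a, Il21r, Il7r, Nfil3 and Smad7 were gained. Of the genes gained, values are given for Nfil3 only. The region given to it lay in intron 5 of Ror2, 138902 bases from the start site of Nfil3, with −log10 q of 13.9 and 9.99.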

How the data were processed

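Sequencing was on a BGISEQ-500 instrument. The authors mapped read pairs to mm10 with Bowtie2 (2.2.5), called peaks per library with MACS2 (2.1.2), without pooling replicates, and list bedtools (2.16.2) in their processing notes. The deposited lists have no column names. Per the values, the deposited column 4 was taken for the −log10 q-value and column 5 for the height of the pileup signal, neither scaled between libraries. Steps on duplicates, mitochondrial reads and the transposase offset are not given in the sources used here. Positions were taken as counting from 0 and are printed counting from 1.

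Merging, annotation (GENCODE vM21, GRCm38) and motif searches used Python 3.11.15, numpy 2.4.6, pandas 2.3.3, scipy 1.17.1, pysam 0.24.0 and samtools 1.23.1, and figures matplotlib 3.10.9. Peaks outside the assembled chromosomes were left out. A region was assigned to the coding gene around its centre. The counting was tested on simulated lists. Intervals are 95% Wilson intervals, and library shares were compared by an exact two-sided permutation test. Nothing in the labels says that the replicate number is more than a number.

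The regions, gene lists and motifs were chosen with earlier results of these data known. Named were the 10 regions with the best rank in their weaker iTreg+IL-4 library, genes with 4 or more regions, and, in each list, the genes that hold a region, with values for the best-ranked region of up to 4 genes. Where a region lay in several lists its values were given once. The alternatives used the upper 50% of each list or lists of equal length (56645 peaks), a reciprocal overlap of 50%, other distances (1 or 10 kb) and windows (400 bases, the whole region), a block by replicate number, and each library left out in turn. Weighting by GC content in bins of 5 percentage points, and other windows for the regions called in all 4 libraries, were added after the data were seen. Values of some genes that the rule would name are not reported here, and expression and ChIP-qPCR were not analysed here.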

Additional observations from a re-analysis of the deposited data

How the results depend on the processing

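The number of IL-4-only regions inside genes moved from 852 to 303 with the upper 50% of each list and to 524 with lists of equal length. It was 540 at more than 10 kb from start sites and ranged from 1074 to 3950 with 1 library left out. Leaving out a library drops a condition of the rule, and a limit of 10 kb tightens it. The direction of these changes was therefore set in advance. Only 6 of the 303 and 218 of the 524 overlapped the 852, of which 6 lay in the upper 50% of both iTreg+IL-4 lists, so these are mostly other regions. The share with the STAT6-type palindrome was 18.8% and 18.3% with those lists, 21.7% within 400 bases (12.0% for regions called in all 4 libraries) and 19.6% over the whole region (17.6%), and from 8.35% to 11.3% with 1 library left out. The STAT5-type share was 10.6% with the upper 50%, 12.9% within 400 bases (17.4%) and 11.9% over the whole region (24.3%), and from 6.67% to 8.81% with 1 library left out. Weighting the regions called in all 4 libraries by GC content moved their STAT5-type share from 10.3% to 11.2%. Genes with a start-site peak in all 4 libraries made up 77.2% with the upper 50% and 80.2% to 85.6% with 1 library left out. The difference in the share of peaks inside genes ranged from -0.0845 to 2.30 percentage points with 1 library left out, and its sign turned without iTreg+PBS replicate 2. With the replicate number as a block it was 1.11 (exact permutation p = 0.5). Nothing shows that equal numbers pair the libraries, and 2 pairs cannot show it. Of 53 alternative values, 29 kept their direction and stayed within the spread or limit, 23 moved and 1 reversed. The cause of each was not tested. The depth of the libraries is unknown and its part in these counts was not tested. With 2 libraries a condition no difference between the conditions can pass an exact permutation test.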
